A study of Mus musculus with 56 samples.

Results

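The genes described here are 7 members of the Sonic hedgehog signalling system and its medulloblastoma signature: the receptor Ptch1, the ligand-binding inhibitor Hhip, the co-receptor Boc, the transcription factors Gli1 and Gli3, and 2 genes used as markers of Sonic hedgehog medulloblastoma, Eya1 and Pdlim3. They were taken by exact gene symbol, each is read by 1 probe of the array, and they are 7 of the 15224 genes that have a probe of a single symbol. The series measured gene expression on 56 Affymetrix arrays of mouse tissue and cells, all of FVB/N background. It held 32 medulloblastomas of the GTML mouse, 5 cerebella taken from GTML mice on postnatal day 7 (P7) and given doxycycline (Dox), and 9 orthotopic tumours. The orthotopic tumours grew from neural stem cells (NSCs) that had been transduced with N-myc(T58A), a mutation-stabilised N-myc, with 3 tumours from cerebellar cells of embryonic day 16 (E16C), 3 from cerebellar cells of postnatal day 0 (P0C) and 3 from forebrain cells of that day (P0F). Single arrays covered cells grown from 1 tumour of each of these origins, NSCs with N-myc(T58A) that were not transplanted (E16C and P0C), NSCs with GFP alone (E16C and P0F, and both a sorted and an unsorted P0C culture), and cells grown from a GTML tumour.

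In the GTML model, as background, MYCN is produced from a doxycycline-repressible transgene driven through the Glt1 promoter, so every control cerebellum carried the transgene and the drug together. The labels call the replicate tumours and cerebella biological replicates, and give no word on separate NSC cultures behind tumours of 1 origin, so the p-values measure the spread between these samples. The host animals of the orthotopic tumours are not described in the labels used here.

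Hedgehog ligand binds Ptch1 with help from co-receptors such as Boc, which frees Smo to act at the primary cilium and turns Gli proteins into transcriptional activators. Gli1 and Ptch1 are themselves direct transcriptional targets, so their RNA is widely read as the output of the pathway, and Hhip is a further target that ties up the ligand. Gli3 acts mainly as a repressor in the absence of ligand. In the newborn cerebellum, ligand from Purkinje cells drives division of granule neuron precursors, and the Sonic hedgehog subgroup of medulloblastoma arises through this pathway, whereas other medulloblastomas do not show its expression signature.

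The 250 bases before the annotated start of Ptch1 and of Hhip, the 2 feedback inhibitors among these genes, are shown because Gli factors are known to act near such target genes. They were copied from RefSeq promoters of build GRCm38.p6, read 5′ to 3′ on each gene's own strand, here the minus strand.
Ptch1, chr13:63565736-63565985: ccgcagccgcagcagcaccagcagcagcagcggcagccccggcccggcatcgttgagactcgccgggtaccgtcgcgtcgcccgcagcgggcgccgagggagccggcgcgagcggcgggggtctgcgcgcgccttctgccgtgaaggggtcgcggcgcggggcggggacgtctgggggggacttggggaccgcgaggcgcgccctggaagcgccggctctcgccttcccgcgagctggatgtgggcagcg
Hhip, chr8:80058009-80058258: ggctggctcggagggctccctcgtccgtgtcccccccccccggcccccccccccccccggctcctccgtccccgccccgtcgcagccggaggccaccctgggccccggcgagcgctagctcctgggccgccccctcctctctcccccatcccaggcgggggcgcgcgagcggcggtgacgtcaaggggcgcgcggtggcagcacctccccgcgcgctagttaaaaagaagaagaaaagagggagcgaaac
Both runs are rich in G and C, at 78.4% in Ptch1 and 76.0% in Hhip. Windows of 300 bases (250 before to 50 after the start) were supplied for Gli3, Ptch1, Hhip and Pdlim3, and the core of the Gli motif, ACCACCC or its reverse complement GGGTGGT, occurred in 0 of these 4 and in 4.61% of 32851 promoters of the same length. No letters are in capitals because no match was found, which describes these windows alone.

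Levels are log2 units of the deposited, already normalised values, and a level of 1 probe is never set against that of another. The lower quartile of all values on the arrays, 6.30, served as a floor that a gene had to exceed on enough arrays to be tested. All 7 members passed this filter in every comparison, but among GTML tumours Gli3 lay above the floor in 11 of 32, Hhip in 12, Eya1 in 25, Boc in 27, Gli1 in 28, Pdlim3 in 30 and Ptch1 in 32. Differences that start or end near the floor can understate a change.

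Some arrays stood apart from the rest of their group. On 28 GTML tumours a list of photoreceptor and Group 3 medulloblastoma genes averaged between 10.9 and 12.3, while GTML tumours 20, 22, 30 and 31 averaged 6.58, 8.32, 9.43 and 7.38. The defining photoreceptor factor of that list, Crx, ranged from 6.64 to 13.0 over all 32. The P0F NSC culture with GFP read 10.2 for Crx against 6.00 to 6.30 in the 3 P0F tumours. Hoxa2, a hindbrain patterning gene, was at 8.05 to 9.70 in the tumours of forebrain origin and at 5.82 in that culture, and forebrain factors (3 of 5 measured) averaged 7.77 to 8.38 in them against 7.22 to 7.25 in the P0C tumours. Results that rest on these arrays are given with and without them where this changes a call. Labelling differed as well: the protocol named for GTML tumours and P7 cerebella was not the one named for transplanted tumours and cells, so for comparisons across that line the group and the protocol cannot be told apart. For E16C tumour 3, the E16C tumour cells and the E16C N-myc culture, 1 label field conflicts with the titles, which the groups follow. Microglia and macrophage genes averaged 7.96 to 8.34 in the 3 E16C tumours, 6.61 in those tumour cells and 6.60 in that culture.

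**Figure D1:**
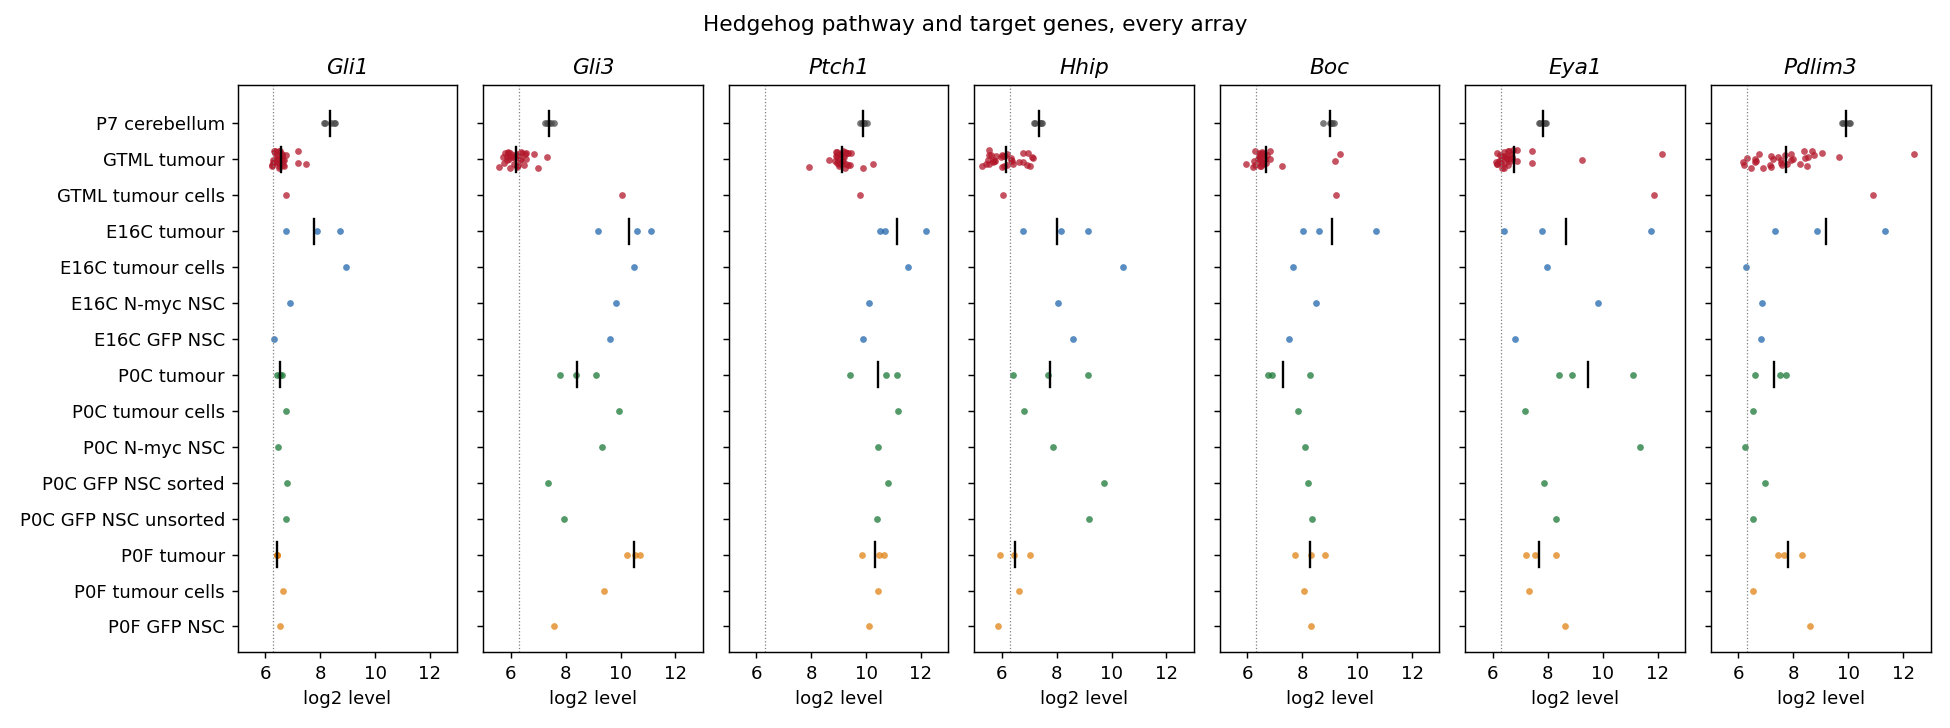
The log2 level of each of the 7 genes (horizontal axis) on every array, by group (rows). Points are arrays, black bars are means of groups with more than 1 array, and the dotted line is the floor of 6.30. GTML tumours lie left of the P7 cerebella for Gli1 and Hhip without overlap, and the E16C tumours spread widely.

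The first comparison asked how hedgehog genes in GTML medulloblastoma stand against the cerebellum in its phase of granule neuron growth. The cerebella were of 1 age, no age is given here for the tumours, and doxycycline is named here for the cerebella alone. Age, drug and tumour growth therefore cannot be told apart in this comparison. In GTML tumours 6 of the 7 genes were lower than in the cerebella, and Eya1 did not pass the test. Among all 12275 genes tested, 24.8% were called lower, 32.9% higher and 57.7% in either direction, by limma with Benjamini-Hochberg adjustment at 0.05. The members' median difference was −1.21 on the log2 scale, and that of all genes tested was 0.10. Both the number and the median describe the list and are not a test of it. With arrays centred on their medians the same 6 members were called, while the median over all genes moved to 0.25 and the calls over all genes went from 4036 higher and 3046 lower to 5413 higher and 2373 lower.

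Gli1, the activator whose RNA tracks pathway output, read 8.18, 8.52, 8.55, 8.15 and 8.41 in the 5 cerebella. In the 32 GTML tumours its lowest level was 6.24, its median 6.51 and its highest 7.48. Every tumour lay below every cerebellum. The difference was −1.80 ± 0.13 (SE), a 3.48-fold lower level, with an adjusted p of 4.53e-14 in limma.

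Ptch1, the receptor that holds Smo inactive, read 9.91, 10.04, 9.85, 9.77 and 9.91 in the cerebella. Across the GTML tumours it ran from 7.93 through a median of 9.12 to 10.24. The groups overlapped through tumours 20 and 30, at 10.24 and 9.90, and the other 30 tumours lay below all cerebella. The mean difference of −0.77 ± 0.17 (adjusted p = 0.000203, limma) was the smallest among the 6 called members.

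Hhip, which sequesters ligand at the cell surface, was at 7.19, 7.40, 7.43, 7.23 and 7.48 in the cerebella. The GTML tumours spanned 5.29 to 7.14 with a median of 6.07. No tumour reached the lowest cerebellum, and the difference was −1.21 ± 0.24 (adjusted p = 7.46e-05, limma). Thus 2 of the 7 members, Gli1 and Hhip, had ranges that did not overlap, where 10% of all genes tested did.

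Boc, a ligand-binding co-receptor, read 9.15, 9.01, 9.06, 8.76 and 9.09 in the cerebella and 5.96, 6.52 and 9.36 as the lowest, median and highest of the tumours. Tumours 20 and 30, at 9.36 and 9.20, lay above all 5 cerebella, and the next highest tumour was at 7.25. The difference of −2.32 ± 0.31, 5.00-fold, was the largest of the members (adjusted p = 1.54e-07, limma). Gli3, the mainly repressive Gli factor, was at 7.32, 7.57, 7.39, 7.26 and 7.46 in the cerebella. In the tumours it ran from 5.58 through 6.18 to 7.34, with tumour 31 alone inside the cerebellar range. Its difference was −1.19 ± 0.17 (adjusted p = 5.42e-07, limma).

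Pdlim3, an actin-associated PDZ and LIM domain protein, read 9.77, 10.02, 9.94, 9.83 and 10.07 in the cerebella. Its tumour levels ran from 6.19 through 7.58 to 12.38, so it was among the most variable members. Tumour 22 stood above every cerebellum at 12.38, and the second highest, tumour 24, was at 9.65 and below them all. The difference was −2.18 ± 0.53 (adjusted p = 0.000775, limma). Eya1, a transcriptional co-activator with phosphatase activity, read 7.74, 7.91, 7.93, 7.68 and 7.82 in the cerebella. Its tumour levels were 6.11 at the lowest, 6.52 at the median and 12.18 at the highest. Tumour 31 at 12.18 and tumour 22 at 9.27 exceeded all cerebella and the other 30 tumours did not exceed 7.43. The difference was −1.03 ± 0.50, with an adjusted p of 0.0752.

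Without tumours 20, 22, 30 and 31 all 7 members were called lower, Eya1 at −1.33 with an adjusted p of 1.90e-11 in limma, and of 12167 genes tested 31.1% were then called lower and 74.4% in either direction. In each of the other 28 tumours all 7 members were below the lowest cerebellum. Each of the 4 had 1 or 2 members above the highest cerebellum: Ptch1 and Boc in tumour 20, Eya1 and Pdlim3 in tumour 22, Boc in tumour 30, and Eya1 in tumour 31. Leaving these 4 out cut the standard deviation of Boc over GTML tumours from 0.71 to 0.15 and that of Eya1 from 1.14 to 0.28, while that of Hhip went from 0.54 to 0.52. Most of the spread of Hhip thus lay among the other 28 tumours. Pdlim3 also kept much of its spread, as its standard deviation went from 1.23 to 0.91, the largest of any member over the 28.

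**Figure D2:**
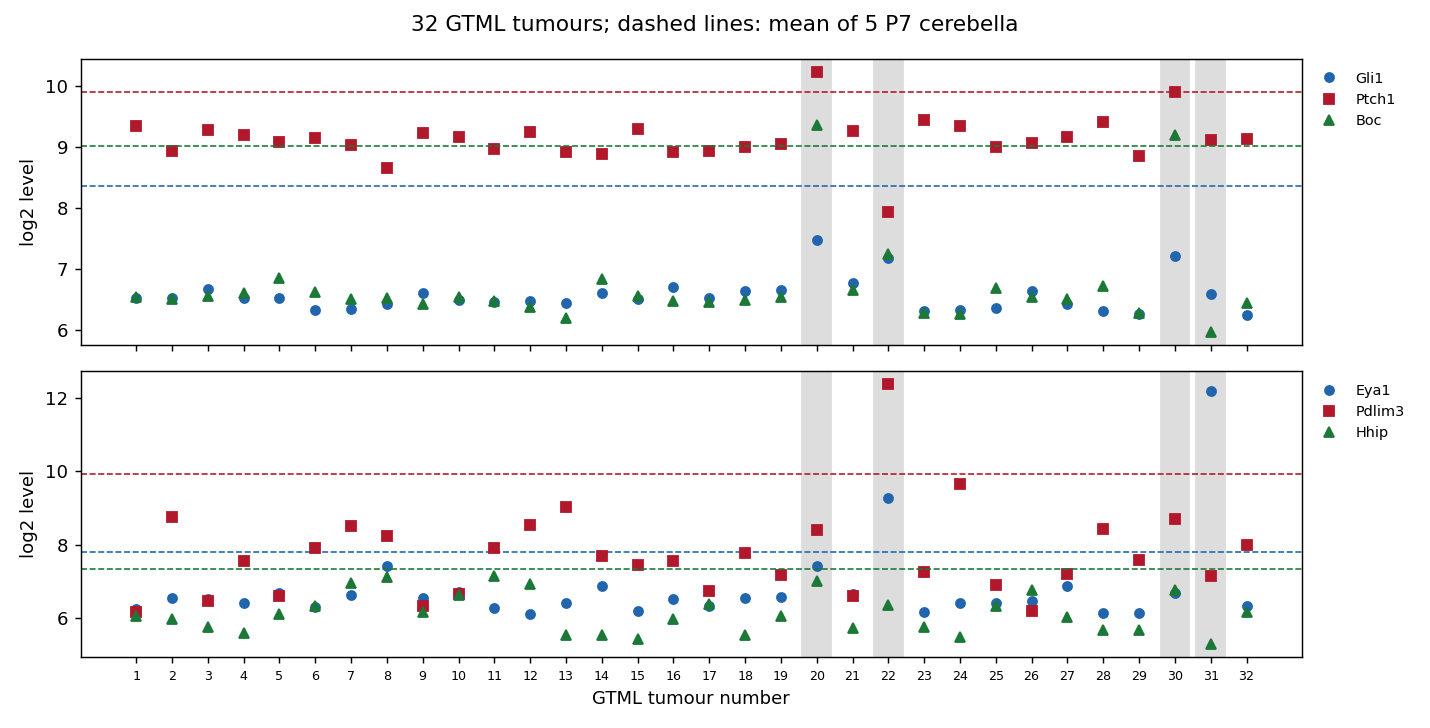
The log2 level (vertical axis) of 6 of the genes in each of the 32 GTML tumours (horizontal axis, tumour number); dashed lines of the same colour are means of 5 P7 cerebella and grey bands mark tumours 20, 22, 30 and 31. Gli1 stays below its dashed line in all tumours, while Boc in tumours 20 and 30, Pdlim3 in tumour 22 and Eya1 in tumours 22 and 31 stand out.

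These tumours also differed in markers of other cells. Tumours 20 and 30 averaged 12.1 and 12.0 for mature granule neuron genes (4 of 5 measured) against 6.79 to 8.51 in the 28, and 11.0 and 10.8 for Purkinje cell and GABA interneuron genes (7 of 7) against 5.67 to 7.25. Their astrocyte and Bergmann glia genes averaged 11.0 in both, against 6.94 to 8.97. Oligodendrocyte lineage genes (9 of 10) averaged 9.41 and 9.03 in them, against at most 8.29. Cell cycle genes (5 of 6) averaged 7.19, 7.61 and 9.47 in tumours 20, 22 and 30, below the 10.2 to 11.3 of the 28, and 11.3 in tumour 31. Tumour 22 averaged 11.1 for fibroblast and meningeal genes and tumour 31 averaged 5.74 for astrocyte genes. The part of these cells in the members' values was not tested.

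Cell markers also moved with the comparison of tumour and cerebellum as a whole. Granule neuron precursor genes (7 of 7 measured) averaged 11.0 to 11.3 in the cerebella and 8.53 to 9.14 in the 28 tumours. Purkinje and GABA interneuron genes averaged 10.1 to 10.4 in the cerebella, and in the 28 tumours Calb1, Car8, Pcp2 and Gad2 of that list had means under the floor. Astrocyte and Bergmann glia genes averaged 11.5 to 11.6 in the cerebella against 6.94 to 8.97. In bulk RNA of this kind, fewer cells of a type and less RNA per cell cannot be told apart. The part of these cells in the lower levels of the members was not tested.

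Other genes of the pathway came from a list of 42, of which 34 were measured and 33 tested here. Of the 33, 17 were lower in the tumours and 5 higher, and 11 did not pass. The 22 called are 66.7% of them, beside 57.7% of all genes. The largest of these differences were Sfrp1, a secreted Wnt inhibitor and hedgehog target, at −3.99, Atoh1, the factor that specifies granule neuron precursors, at −2.69, and the growth factor gene Igf2 at −2.68. Mouse Mycn stood at −2.06 and Gab1, a signalling adaptor of the hedgehog tumour signature, at −1.65. The ligand-release gene Scube2 was at −1.54, the receptor gene Ntrk3 at −1.47 and Smo, the signal transducer, at −1.27. All 8 passed at an adjusted p of at most 0.00265 in limma. The transducer Smo was thus lower along with 6 of the members. Whether the Mycn probe reads transgene RNA was not tested.

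**Figure D3:**
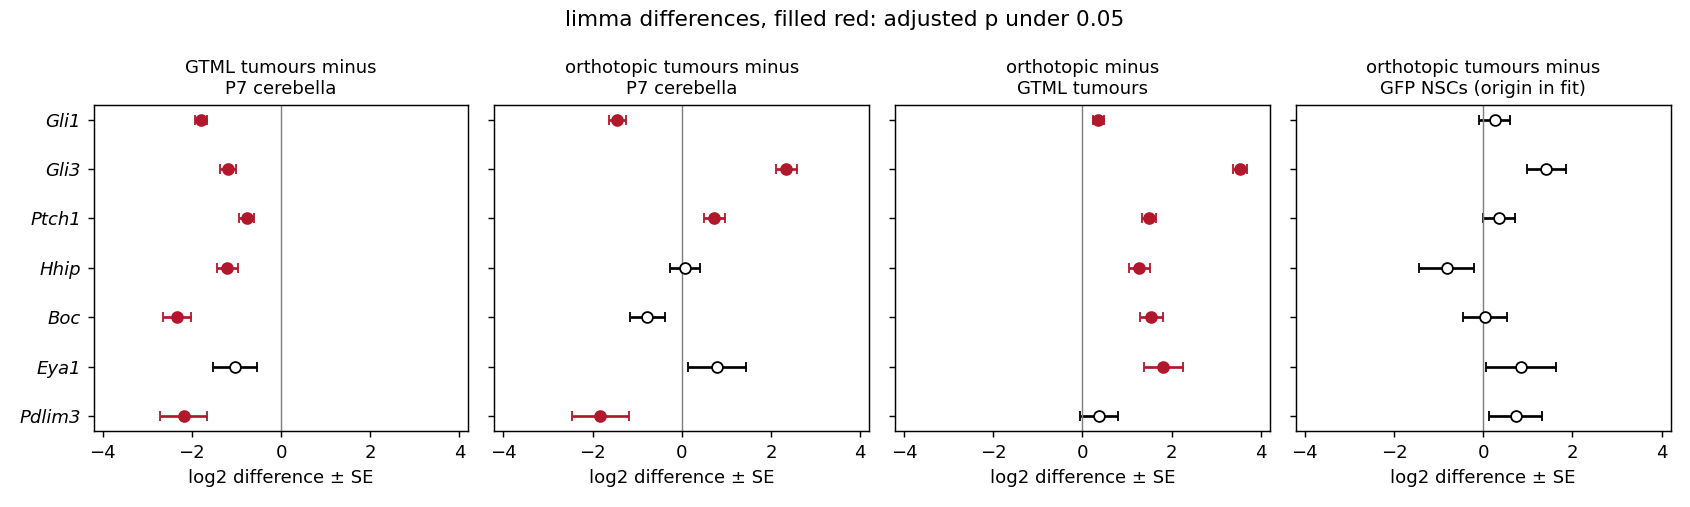
limma log2 differences (horizontal axis) with standard errors for the 7 genes (rows) in 4 comparisons; red filled points have an adjusted p under 0.05. All 7 points lie left of 0 for GTML tumours against P7 cerebella, and Gli3 lies right of 0 by more than 2 log2 units for orthotopic tumours against either.

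Next, the 9 orthotopic tumours were read singly, since their origins are the study's own variable. E16C tumours held the highest Gli1 among them. The 3 E16C tumours read 6.75, 8.74 and 7.89 for Gli1, the P0C tumours 6.43, 6.54 and 6.60, and the P0F tumours 6.45, 6.43 and 6.42. E16C tumour 2 was the only orthotopic tumour above the highest cerebellum for Gli1, and all P0C and P0F tumours lay below the lowest E16C tumour. P0C tumours differed from E16C tumours by −1.27 ± 0.41 (adjusted p = 0.223) and P0F tumours by −1.36 ± 0.41 (adjusted p = 0.233), and neither passed limma's test. Without E16C tumour 1 the first of these did, at −1.79 with an adjusted p of 0.0489.

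Ptch1 was above the highest cerebellum in 7 of the 9 tumours. It read 10.50, 12.17 and 10.68 in E16C tumours, 10.73, 9.43 and 11.14 in P0C tumours, and 10.47, 10.64 and 9.85 in P0F tumours. P0C tumour 2 was the lowest and E16C tumour 2 the highest. Hhip read 8.16, 9.13 and 6.76 in E16C tumours, 9.15, 6.42 and 7.69 in P0C tumours, and 7.03, 6.46 and 5.94 in P0F tumours. Its 3 P0F tumours were all below the lowest cerebellum, while 2 E16C and 2 P0C tumours were above the highest. Boc read 10.67, 8.61 and 8.02 in E16C tumours, 6.92, 8.29 and 6.74 in P0C tumours, and 7.73, 8.32 and 8.85 in P0F tumours, so the 3 origins overlapped.

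Gli3 was above the highest cerebellum in all 9. It read 11.12, 10.59 and 9.19 in E16C tumours, 9.10, 7.81 and 8.37 in P0C tumours, and 10.72, 10.53 and 10.25 in P0F tumours. The P0C tumours lay below all others. P0F tumours exceeded P0C tumours by 2.07 ± 0.49 (adjusted p = 0.0803) and P0C tumours were below E16C tumours by −1.87 ± 0.49 (adjusted p = 0.143), both short of limma's threshold. Without E16C tumour 3 these became 2.07 with an adjusted p of 0.0273 and −2.42 with an adjusted p of 0.0238.

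Eya1 and Pdlim3 were the least uniform. Eya1 read 11.75, 7.79 and 6.42 in E16C tumours, 8.40, 11.10 and 8.90 in P0C tumours, and 7.20, 7.54 and 8.29 in P0F tumours. Its range of 5.33 within E16C tumours was wider than that of 99.9% of the 11917 genes tested, whose median range was 0.622. Pdlim3 read 7.33, 11.35 and 8.88 in E16C tumours, 7.72, 7.54 and 6.62 in P0C tumours, and 7.68, 8.32 and 7.46 in P0F tumours, with an E16C range of 4.03 that exceeded that of 99.6% of genes. E16C tumour 1 thus carried the highest Eya1 and Boc with low Gli1 and Pdlim3, while E16C tumour 2 carried the highest Gli1, Ptch1 and Pdlim3. By contrast the Gli1 range was 0.18 in P0C and 0.02 in P0F tumours, at levels close to the floor of 6.30. Other members were less even in these tumours. In P0C tumours the ranges of Hhip (2.73), Eya1 (2.70) and Ptch1 (1.71) exceeded those of 97.7%, 97.6% and 91.6% of genes. In P0F tumours the ranges of Boc (1.12), Hhip (1.09) and Eya1 (1.09) exceeded those of 93.4%, 92.8% and 92.8% of genes.

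**Figure D4:**
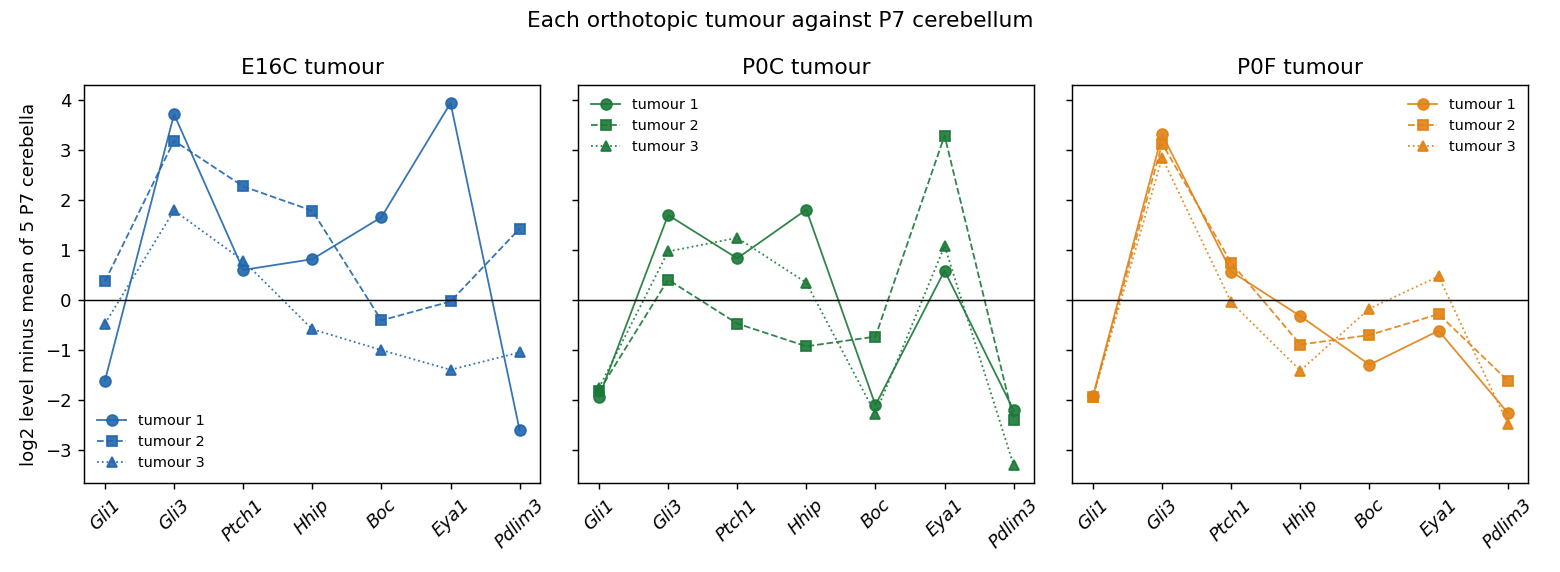
The log2 level of each gene in each orthotopic tumour minus the mean of 5 P7 cerebella (vertical axis), for E16C, P0C and P0F tumours; each line joins the values of 1 tumour. E16C tumours 1 and 2 diverge at Gli1, Eya1 and Pdlim3, while the P0F tumours differ by at most 1.12 at any gene.

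Over the whole list, 0 of the 7 members was called between any of the 3 origins, where 0.705% of genes were called for P0C against E16C, 0.277% for P0F against E16C and 1.18% for P0F against P0C. At an unadjusted limma p under 0.05 the members numbered 3, 1 and 1, where 14.4%, 11.8% and 16.3% of all genes tested passed. With 3 tumours an origin the precision is limited, and the standard errors ran from 0.41 for Gli1 to 1.23 for Eya1. The 3 origins share 1 estimate of spread for each gene, although their spreads were unequal. For Gli1 the SD was 0.99 in E16C tumours, 0.09 in P0C tumours and 0.01 in P0F tumours. Ranges did not overlap for Gli1 and Gli3 between P0C and E16C tumours (16.2% of genes), for Gli1 between P0F and E16C tumours (20.5%), and for Gli3 and Eya1 between P0F and P0C tumours (25.5%). These 3 comparisons share tumours with each other.

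Among the other pathway genes, 1 of 33 was called between P0C and E16C tumours and 0 of 33 in each of the other comparisons of origins, with 6, 3 and 7 at an unadjusted limma p under 0.05 (14.4%, 11.8% and 16.3% of all genes). That gene was Smo, which read 10.75, 10.85 and 10.32 in E16C tumours and 9.30, 9.44 and 9.28 in P0C tumours. The 2 groups did not overlap, and the difference was −1.30 ± 0.19 (adjusted p = 0.0287, limma). Atoh1 read 10.68, 6.72 and 7.89 in E16C tumours, at most 6.36 in P0C tumours 1 and 2 (it was blank in P0C tumour 3) and 6.04, 6.20 and 6.09 in P0F tumours. The E16C tumour with the highest Atoh1 was thus tumour 1, the one with the lowest Gli1 of its origin. Oligodendrocyte lineage genes averaged 9.89 to 10.7 in P0C tumours, 7.04 to 7.88 in E16C tumours and 8.02 to 8.56 in P0F tumours. Granule neuron precursor genes (7 of 7) averaged 8.34 to 9.59 in E16C, 7.49 to 7.89 in P0C and 7.66 to 8.37 in P0F tumours. The part of either list in the differences between origins was not tested.

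The orthotopic tumours were then set against the other tissues in 1 fit with equal weight for the 3 origins. Against GTML tumours 6 members were higher, where 28.4% of 12672 genes were called higher, 32.7% lower and 61.1% in either direction. Gli3 differed by 3.53 ± 0.16, 11.6-fold (adjusted p = 1.44e-22), with every orthotopic tumour above every GTML tumour, as held for 4.09% of genes in 1 direction or the other. Eya1 was higher by 1.81 ± 0.44, Boc by 1.55 ± 0.27, Ptch1 by 1.49 ± 0.16 and Hhip by 1.28 ± 0.23, each at an adjusted p of at most 0.000446 in limma. Gli1 was higher by 0.36 ± 0.12 (adjusted p = 0.0116, limma), and without E16C tumour 2 by 0.20 with an adjusted p of 0.125. All groups of this fit share 1 estimate of the spread of a gene. For Gli1 the SD was 0.99 in E16C tumours and 0.28 in GTML tumours, so its SE can understate the spread of orthotopic tumours. Pdlim3 differed by 0.36 ± 0.43 (adjusted p = 0.482). The members' median was 1.49 against −0.04 over all genes tested. Neural stem cell genes (5 of 5 measured) averaged 9.79 to 10.8 in the orthotopic tumours, 8.76 to 9.25 in the 28 GTML tumours and 9.54 to 9.74 in the cerebella. Purkinje and GABA interneuron genes averaged 5.84 to 6.96 and astrocyte and Bergmann glia genes 8.74 to 10.1 in the orthotopic tumours, below all cerebella. Granule neuron precursor genes averaged 7.49 to 9.59 in the orthotopic tumours, against 11.0 to 11.3 in the cerebella. The part of these cells in the members' differences was not tested.

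Against P7 cerebella the members split. Gli3 was higher by 2.34 ± 0.24 (adjusted p = 3.19e-11) and Ptch1 by 0.73 ± 0.24 (adjusted p = 0.00921), where 29.7% of 12670 genes were called higher. Gli1 was lower, with a difference of −1.44 ± 0.18 (adjusted p = 1.04e-08), as was Pdlim3, with −1.82 ± 0.63 (adjusted p = 0.0127), where 27.1% were called lower and 56.8% either way. Gli3 alone had ranges that did not overlap, as 34.7% of genes did. Both readouts of pathway output, Gli1 and Ptch1, were therefore called, and in opposite directions. Hhip differed by 0.07 ± 0.34, Boc by −0.78 ± 0.39 and Eya1 by 0.79 ± 0.65, and none of these passed limma's test. Boc became called without E16C tumour 1 (−1.04, adjusted p = 0.0175), without P0C tumour 2 (−0.94, adjusted p = 0.0419) or without the 4 GTML tumours, which share the variance (−0.78, adjusted p = 0.00303). Without the forebrain arrays, an alternative chosen after seeing the data, 6 members against GTML tumours and 4 against cerebella were again called, Gli1 with 0.60 against GTML tumours. Among all genes tested in that setting, 54.2% of 12610 were called against GTML tumours and 51.9% of 12608 against cerebella. Since GTML tumours and cerebella were labelled by 1 protocol and the orthotopic tumours by the other, protocol and group cannot be told apart in both comparisons. The age and doxycycline of the cerebella likewise cannot be told apart from group in the comparison with them.

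Of the other pathway genes 15 were higher and 7 lower than in GTML tumours among 34 tested, or 64.7% beside 61.1% of all genes. Yap1, a Hippo pathway effector, was 5.17-fold higher. On the log2 scale Nkx2-2, a neural patterning factor and hedgehog target, was higher by 2.01, Smo by 1.54 and Gab1 by 1.49, while Spop, which targets Gli proteins for degradation, stood at −1.51, the cyclin gene Ccnd2 at −1.41 and the protein kinase A subunit Prkaca, a brake on Gli activation, at −1.09. The cilium gene Evc, which acts with Smo, stood at 1.07. Against cerebella 10 were higher and 13 lower, or 67.6% beside 56.8% of all genes. Sfrp1 was at −3.40, Ccnd2 at −2.28, Atoh1 at −2.17 (P0C tumour 3, where it was blank, left out of its fit), Igf2 at −1.89, Mycn at −1.69 and Spop at −1.65, and Yap1 at 1.46 and Nkx2-2 at 1.40. Each named difference passed at an adjusted p of at most 0.000851 in limma. The pooled values hide a spread between tumours. Atoh1 in E16C tumour 1, at 10.68, lay above every cerebellum (8.74 to 9.35), and all other orthotopic tumours with a value lay below them. Mean Ccnd2 was 8.49 in E16C, 10.41 in P0C and 11.55 in P0F tumours, against 12.43 in cerebella.

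A further comparison set the orthotopic tumours against cultured stem cells with GFP alone. The tumours carry N-myc(T58A) and these cultures do not. In it, transduction therefore cannot be told apart from transplantation and growth. Microglia and macrophage genes (5 of 5 measured) averaged 7.80 to 9.01 in the tumours and 6.36 to 7.05 in these cultures. The part of such cells in the members' differences was not tested. Within the 18 arrays of the transplant series, with origin as a term in the fit, 0 of 7 members were called between orthotopic tumours and GFP NSCs, where 11.1% of 12636 genes were, and 0 had ranges that did not overlap, as 5.56% of genes did. Gli3 came nearest, at 7.35 and 7.94 in the sorted and unsorted P0C culture, 9.62 in the E16C culture and 7.57 in the P0F culture, and at 7.81 to 11.12 in the tumours. Its difference was 1.42 ± 0.44, with an adjusted p of 0.0522. Only Gli3 had an unadjusted limma p under 0.05, where 27.5% of genes passed. The adjusted p ranged from 0.0251 to 0.193 when single arrays were left out, below 0.05 without E16C tumour 3, without P0C tumour 2 or without the E16C GFP culture. The member standard errors were 0.35 to 0.79, so moderate changes were not detectable with 4 GFP arrays. The sorted and unsorted P0C arrays are not said to be separate cultures, and the 1402 genes called over all became 562 without the sorted and 690 without the unsorted one.

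The GFP cultures differed among themselves in Hhip, at 9.72 and 9.16 in the P0C cultures, 8.59 in E16C and 5.88 in P0F. Tumours of P0C origin were below both P0C cultures for Hhip, and those of P0F origin were above the P0F culture. Gli1 was at 6.31 in the E16C GFP culture, below all 3 E16C tumours, and at 6.81, 6.76 and 6.54 in the P0C and P0F cultures, above all tumours of those origins. These culture levels, and those of the P0C and P0F tumours, were close to the floor of 6.30. Ptch1 was at 9.88 to 10.78 in the GFP cultures and Pdlim3 at 6.52 to 8.60. Among the 34 other pathway genes 3 were higher in tumours, Mycn by 2.01 and the cilium genes Evc2 by 0.76 and Evc by 0.52. Another 2 were lower, Prkaca by 1.32 and Btrc, a ubiquitin ligase subunit that processes Gli3, by 0.65. All had an adjusted p of at most 0.0397 in limma. Mycn is the gene of the transduced construct, and N-myc cultures that were not transplanted exceeded GFP cultures in it by 2.22. The P0F GFP culture with high Crx is 1 of the 4 controls. Without it, or without all forebrain arrays, again 0 of 7 members were called, where 1569 of 12603 and 931 of 12490 genes were.

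N-myc(T58A) cultures that were never transplanted allow the change in culture to be read on 2 arrays. Here 0 of 7 members were called against GFP cultures, where 0.00796% of 12557 genes, a single gene, was. That gene was Mycn, higher by 2.22 ± 0.30 (adjusted p = 0.0248, limma), the gene carried by the transduced construct. It was called in 10 of 18 fits that left out 1 array, with differences of 2.04 to 2.40. The call was lost without E16C tumour 3, any of the 3 tumour cell cultures, the E16C GFP culture, either P0C GFP culture or the P0C N-myc culture. Without both P0C GFP cultures Mycn was at 1.89 (adjusted p = 0.416, limma). Eya1 showed the largest member difference, with 11.35 in the P0C culture with N-myc against 7.87 and 8.30 with GFP, and 9.85 against 6.80 in E16C cultures. Both N-myc cultures lay above all 4 GFP cultures for Eya1, the only member without overlap (16.3% of genes), and the difference was 2.63 ± 1.14 with an adjusted p of 0.56. It was the only member with an unadjusted limma p under 0.05, where 8.49% of genes passed. Gli1 was at 6.92 and 6.46 in the 2 N-myc cultures, Ptch1 at 10.10 and 10.45, and Gli3 at 9.83 and 9.34.

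Orthotopic tumours and the N-myc cultures both carry N-myc(T58A), so transduction is common to both sides of their comparison. Microglia and macrophage genes averaged 6.33 and 6.60 in the 2 cultures, below all orthotopic tumours, and the part of such cells was not tested. Between the tumours and these cultures 0 of 7 members were called, against 1.14% of 12560 genes. At an unadjusted limma p under 0.05 there were 0 members, and 0 had ranges that did not overlap, as 11.9% of genes did. Tumours minus cultures gave −1.79 ± 1.04 for Eya1 (adjusted p = 0.449) and 1.50 ± 0.79 for Pdlim3 (adjusted p = 0.399). Among the other pathway genes 0 of 34 were called, with 6 at an unadjusted limma p under 0.05, as for 14.7% of all genes.

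Cells grown out of a tumour were available once for each origin. For 3 E16C samples (tumour 3, the tumour cells and the N-myc culture) the cell type field of the labels names a different E16C sample than the title and source name do, and groups here follow the titles. The E16C tumour cells read 8.95 for Gli1, 11.53 for Ptch1 and 10.41 for Hhip. For Gli1 and Hhip these were the highest levels on any of the 56 arrays, and Ptch1 was higher only in E16C tumour 2. The P0C and P0F tumour cells read 6.76 and 6.65 for Gli1 and 6.80 and 6.62 for Hhip. Pdlim3 was at 6.27, 6.55 and 6.52 in the 3 cultures, below every orthotopic tumour, whose lowest was 6.62, and it was the only member without overlap (7.1% of genes). These culture levels were close to the floor of 6.30, and that of the E16C cells was under it. None of the 7 members was called between tumour cells and tumours, where 3.56% of 12630 genes were. Pdlim3 came nearest with −1.65 ± 0.66 (adjusted p = 0.183, limma) and was the only member with an unadjusted p under 0.05, where 19% of genes passed. The labels number the source tumour of each culture as 1, and the fit treated cells and tumours as independent. Whether that number is the replicate number of the tumour arrays is not stated. Set against tumour 1 of its origin, Pdlim3 differed by −1.06, −1.18 and −1.15 in E16C, P0C and P0F cells, and Gli1 by 2.20, 0.33 and 0.20. Without the 3 tumours numbered 1 again 0 of 7 members were called, among 382 genes in all. Of the other pathway genes Gab1 fell by 1.14 and Prkaca rose by 0.67 (adjusted p at most 0.0146, limma). Microglia and macrophage genes (5 of 5 measured) averaged 7.80 to 9.01 in the orthotopic tumours and 6.59 to 6.61 in the tumour cells. The part of such cells in the members' differences was not tested.

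The culture derived from a GTML tumour was a single array and entered no test. It read 6.77 for Gli1, 10.06 for Gli3, 9.79 for Ptch1, 6.04 for Hhip, 9.24 for Boc, 11.86 for Eya1 and 10.91 for Pdlim3. Gli3 was above every GTML tumour. Among GTML tumours Boc was exceeded only by tumour 20, Eya1 only by tumour 31 and Pdlim3 only by tumour 22. Crx was at 11.2. The labels do not settle which of the 2 labelling protocols this culture had. Boc, Eya1 and Pdlim3 in this culture were the highest of the 15 group values.

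Ordered over the 15 groups, Gli1 ran from E16C tumour cells (8.95) through P7 cerebella (8.36 ± 0.19, SD) and E16C tumours (7.79 ± 0.99) to the E16C GFP culture (6.31), and the 12 groups after E16C tumours lay between 6.31 and 6.92. P7 cerebella and E16C tumours overlapped. Gli3 was highest in P0F tumours (10.50 ± 0.24) and lowest in GTML tumours (6.21 ± 0.38), with P7 cerebella 13th of 15. Its upper groups, P0F tumours, E16C tumour cells and E16C tumours, overlapped. GTML tumours were also last for Ptch1 (9.13 ± 0.37), Boc (6.69 ± 0.71) and Eya1 (6.79 ± 1.14). For Hhip the last was the P0F GFP culture (5.88), below the GTML tumour cells (6.04) and the GTML tumours (6.14 ± 0.54). The P0C N-myc culture (6.23) was last for Pdlim3.

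The members did not share 1 pattern over these groups. Pearson's r between pairs of members over 15 group means ran from −0.49 for Hhip with Pdlim3 to 0.62 for Boc with Pdlim3, and it was 0.46 for Gli1 with Ptch1 and 0.56 for Ptch1 with Hhip. These points mix tissue, culture and labelling protocol and 10 of them are single arrays, so r is a description. Compared with 11823 genes, the patterns most like that of Gli1 were those of Clmp (0.94), Serinc2 (0.89), Cttn (0.88), Loxl1 (0.88) and Slc43a3 (0.87). For the others they were Ap3b1 and the cilium gene Evc2 for Gli3 (0.90 each), Pik3c2a and Hspg2 for Ptch1 (0.87 and 0.84), Tpst2 and Met for Hhip (0.93 and 0.91), Cep70 and Ezr for Boc (0.77 and 0.75), Trdmt1 and Rex2 for Eya1 (0.79 and 0.78), and Kif26b and Igf2 for Pdlim3 (0.91 and 0.90). Likeness of pattern says nothing of shared control.

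Within GTML tumours the other members were related to Gli1 over the 28 that did not stand apart. None of the 6 relations passed a two-sided permutation test adjusted over 12199 genes, where 11.3% of genes did. Pdlim3 came nearest, with Pearson's r = −0.48 (permutation p = 0.01005, adjusted p = 0.0744) and Spearman's rho = −0.48 (permutation p = 0.00973, adjusted p = 0.0741). Boc had r = 0.31 and rho = 0.30, Eya1 0.30 and 0.43, Gli3 0.13 and 0.04, Hhip −0.12 and −0.14 and Ptch1 −0.07 and −0.07, with permutation p from 0.0235 to 0.831 and adjusted p from 0.132 to 0.929. Without the 2 tumours farthest from the median Gli1 level, tumours 21 and 32, r was −0.44 for Pdlim3 and 0.26 for Boc. Gli1 itself spanned 0.52 over these tumours, close to the floor.

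Over all 32 tumours r rose to 0.82 for Boc (permutation p = 3e-05, adjusted p = 0.000417) and to 0.51 for Gli3 (permutation p = 0.0043, adjusted p = 0.0112), and 52.5% of genes passed. By Spearman's rho over the 32, where 17.8% of genes passed, neither did, at 0.43 for Boc (adjusted p = 0.0669, permutation) and 0.30 for Gli3 (adjusted p = 0.221, permutation). Eya1 passed by rho alone, at 0.55 (permutation p = 0.00153, adjusted p = 0.0194), with r = 0.32 (adjusted p = 0.119, permutation). None of the 3 passed by either coefficient over the 28. The named genes most related to Gli1 over the 28 were Fgf23 (r = 0.87), Tnfrsf25 (0.85), Hpn (0.83), Gata4 (0.83) and Ip6k3 (0.83), each at the smallest permutation p that 100000 resamples can give, 1e-05 (adjusted p = 0.000722). After another round of quantile normalisation 0 of 12199 genes passed by either coefficient, with 1060 by Pearson's r and 1447 by Spearman's rho at an unadjusted permutation p under 0.05.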

How the data were processed

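Expression was measured on 56 arrays. The authors deposited log2 levels that were normalised by RMA with build mm9, per the submitters' processing notes; blank cells (31111, none in the 7 members) were left out of each fit. Of 17831 probes, 15620 have 1 gene symbol in the supplied annotation, 1370 several and 841 none; a gene with several probes took the brightest, with their mean as an alternative. Genes above the 25th percentile of all values on a number of arrays no lower than the size of the smallest group were tested with limma 3.58.1 in R 4.3.3, and p-values were adjusted over all genes tested at 0.05. Fits covered GTML tumours with cerebella, the 9 orthotopic tumours, the 18 arrays of the transplant series with origin as a term, and 46 arrays in 5 groups. The steps were tested on simulated data. Replicate numbers did not pair samples (lowest correlation of deviations −0.19, highest 0.20). Alternatives were other filters, probe rules, scalings and priors, filled blanks, a replicate block and arrays left out. Genes were named as members, as the 8 largest called differences of the pathway list, or as nearest in pattern. The members and lists were chosen with earlier results of these data known. The number of arrays limits the precision.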

Additional observations from a re-analysis of the deposited data

Results flagged for a closer look

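For several genes every tumour or culture of one origin moved one way against its controls and every one of another origin moved the other way. These differences between origins were not tested. Each that involves tumours rests on 1 or 2 culture arrays per origin on one side, the tumour cells in the case of Gli3. For N-myc against GFP cultures both sides are culture arrays, 1 against 1 in E16C and 1 against 2 in P0C. With 1 array on each side, as in E16C, some separation was bound to appear whatever its size.

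Tumours against GFP cultures differed in Gli1, by 1.48 in E16C and by −0.26 in P0C (a difference of 1.74) and by −0.11 in P0F (1.59 against E16C). The P0C and P0F levels of Gli1 behind this were 6.42 to 6.81, close to the floor of 6.30. Hhip moved by −1.68 in P0C and by 0.60 in P0F (−2.28). Eya1 moved by 1.38 in P0C and by −0.95 in P0F (2.33), and Pdlim3 by 2.35 in E16C and by −0.78 in P0F (3.13). The P0F control is the culture with Crx at 10.2.

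Tumour cells against tumours differed in Gli3, by 1.51 in P0C and by −1.08 in P0F (2.59). N-myc cultures against GFP cultures differed between E16C and P0C in Gli1 (0.61 and −0.32, a difference of 0.93), Boc (1.00 and −0.19, 1.19) and Pdlim3 (0.03 and −0.51, 0.54). The Gli1 and Pdlim3 levels of these cultures were 6.23 to 6.96, close to the floor of 6.30.

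In the single culture grown from a GTML tumour, which entered no comparison and whose labelling protocol is not settled by the labels, 4 genes lay above every P7 cerebellum. They were Gli3 at 10.06, Boc at 9.24, Eya1 at 11.86 and Pdlim3 at 10.91, against highest cerebella of 7.57, 9.15, 7.93 and 10.07.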

How the results depend on the processing

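Over the alternatives planned at the start and those added after seeing the data, no called difference of a member changed sign, and the cause of each change below was not tested. Excluding fits that left out single arrays, 587 differences of members kept their direction and their side of the threshold, 8 changed sign, 6 passed only under the alternative and 2 passed only without it. With single arrays left out, 881 did so, 34 changed sign, 8 passed only under the alternative and 1 only without it. Where this left 1 N-myc culture, it was assumed to vary like the other groups. The stricter filter left 4 members tested between GTML tumours and cerebella (Boc, Gli1, Pdlim3 and Ptch1), all called, where 4988 of 8977 genes were.

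The count of members called between orthotopic tumours and GFP cultures became 1 with the stricter filter, another quantile normalisation or centred arrays, and was 0 to 1 when single arrays were left out, as it was for P0C against E16C and for P0F against P0C tumours. That member was Gli3 under the 3 settings (adjusted p = 0.0459, 0.0434 and 0.0422, limma). Among all genes 1307 of 9324, 1454 of 12404 and 1280 of 12554 were called in these settings. The replicate number was also used as a block, although these numbers did not pair the samples. GTML tumours numbered above 5 shared their number with no other array, so each took its own term. Those tumours, with 20, 22, 30 and 31 among them, thus added nothing to the differences with the block. With it, 7 members were called between GTML tumours and cerebella (Eya1 at −1.32, adjusted p = 3.59e-05, limma), where 7856 of 12265 genes were. Between orthotopic and GTML tumours 5 were called, without Gli1 (0.33, adjusted p = 0.231, limma), where 6028 of 12669 genes were. Between orthotopic tumours and cerebella 3 were called, without Ptch1 (0.70, adjusted p = 0.0900, limma), where 7218 of 12669 genes were. Between origins 0 members were called. The block changed no other call of a member.

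Differences that passed no test changed sign under some settings. Without both P0C GFP cultures, Hhip in tumours minus GFP cultures became 0.15, and in N-myc minus GFP cultures Gli1 became 0.26, Hhip 0.15 and Ptch1 0.15. In tumours minus N-myc cultures Boc became 0.029 after another quantile normalisation and 0.021 with centred arrays, and without the forebrain arrays Gli3 became −0.22 and Hhip −0.075. Leaving out single arrays gave, for P0C minus E16C tumours, −0.30 to 2.36 for Eya1 and −0.96 to 0.40 for Hhip. For P0F minus E16C tumours it gave −2.09 to 0.57 for Eya1 and −0.35 to 0.61 for Gli3, and for P0F minus P0C tumours −0.62 to 0.24 for Ptch1. For tumours minus GFP cultures it gave −0.41 to 0.23 for Boc and −0.21 to 0.42 for Gli1. For tumours minus N-myc cultures it gave −0.51 to 0.084 for Boc, −0.49 to 0.61 for Gli3 and −0.14 to 0.40 for Hhip. For N-myc minus GFP cultures it gave −0.34 to 0.36 for Boc, −0.73 to 0.063 for Gli1 and −0.50 to 0.13 for Ptch1. For tumour cells minus tumours it gave −0.27 to 0.65 for Gli3 and −0.42 to 1.45 for Hhip, and for orthotopic tumours minus cerebella −0.16 to 0.29 for Hhip.

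Over all 32 GTML tumours 2 relations with Gli1 passed by Pearson's r (Boc and Gli3) and Eya1 alone by Spearman's rho, and r became 0.25 for Hhip, 0.28 for Pdlim3 and 0.25 for Ptch1. After another quantile normalisation r was −0.079 for Boc, −0.058 for Gli3 and 0.070 for Ptch1, and with centred arrays 0.12 for Ptch1.

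Counts over all genes depended on the setting more. The 84 genes called between P0C and E16C tumours became 36 with the block and 27 to 230 with single arrays left out. The 33 for P0F against E16C became 0 and 0 to 82, and the 141 for P0F against P0C became 25 and 0 to 251. The 1402 for tumours against GFP cultures became 312 without both P0C GFP cultures, 931 without the forebrain arrays and 562 to 1569 without single arrays, with 562 and 690 without the sorted and the unsorted P0C GFP culture. For tumours against N-myc cultures the 143 became 35 without the forebrain arrays and 1 to 208 without single arrays. The 1 gene for N-myc against GFP cultures became 4 with blanks filled and 0 to 10 without single arrays. The 449 for tumour cells against tumours became 294 after another quantile normalisation, 51 without the forebrain arrays and 118 to 490 without single arrays.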
